A study of Mus musculus with 4 samples.

Results

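The presynaptic active zone scaffolds examined here were the 9 mouse genes Pclo, Bsn, Rims1, Rims2, Erc1, Erc2, Unc13a, Unc13b and Ppfia3. The m6A peaks of both replicates were laid over the exons of these genes, taken from GENCODE M21 on the mm10 genome, and a peak was assigned to a gene when at least 1 base fell in an exon of any of its transcripts. Of 38533 peaks in replicate 1, 102 lay over exons of the 9 genes, and of 30134 peaks in replicate 2, 91 did. The 9 genes were compared with 21866 protein-coding genes. The data came from whole brain of C57BL/6J mice at 4 weeks of age, which the series describes as Prrc2a flox/flox animals. Poly(A) RNA was fragmented and immunoprecipitated with an antibody against m6A (m6A IP, n = 2), and input RNA served as the control (input, n = 2). All samples shared this genotype and age, and no knockout or treated group belongs to the series, so there was 1 condition and no comparison between groups. The number of animals behind each replicate, and whether tissue was pooled, are not given in the sources used here. The inputs entered only through the fold enrichment of IP over input that is given for each peak, so transcript levels were not measured and the read depth behind a peak is unknown. Whole brain mixes neurons with glia, and the cells that contributed an mRNA cannot be told apart.

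m6A is a methyl mark placed on adenosines of mRNA by the METTL3 and METTL14 complex, mostly within short motifs such as GGACT, and it is known to concentrate in long internal exons and around stop codons. The active zone is the patch of presynaptic membrane where synaptic vesicles dock, are primed and fuse. Piccolo (Pclo) and bassoon (Bsn) are its giant scaffolds. RIM proteins (Rims1, Rims2) tether vesicles and calcium channels, ELKS/CAST proteins (Erc1, Erc2) bind RIMs, Munc13 proteins (Unc13a, Unc13b) prime vesicles, and liprin-alpha-3 (Ppfia3) helps to assemble the site.

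A shared interval here is the stretch of sequence in which peaks from the 2 lists overlap. The coding sequences below carry GGACT, in capitals, inside the strongest shared intervals of each gene, that is, those with the 3 highest values of the lower of both fold enrichments. Unc13a and Unc13b had only 3 shared intervals each, so for them this takes in every interval. The site in the last exon of Unc13b lies in the weakest interval of that gene, at 1.40 in replicate 1 and 1.75 in replicate 2. Exon 4 of Rims2 ranked 3 of 4. They are shown because a peak is far wider than 1 methylated base, and these motifs are the candidate positions that such a peak contains. Each run is 29 nt of mm10 on the strand of the gene, 5′ to 3′, with the adenosine of the motif in the middle. The runs lie at chr9:108110968-108110996 (Bsn, exon 5, minus strand), chr1:22534062-22534090 (Rims1, exon 7, minus strand), chr15:39437048-39437076 (Rims2, exon 4, plus strand), chr14:27653136-27653164 (Erc2, exon 2, plus strand), chr8:71658719-71658747 and chr8:71658617-71658645 (Unc13a, exon 10, minus strand), chr4:43216351-43216379, chr4:43216748-43216776 and chr4:43217143-43217171 (Unc13b, exon 2 of the transcript Unc13b-216, plus strand) and chr4:43263376-43263404 (Unc13b, last exon, plus strand).
Bsn exon 5: ttgctgtggcggGGACTgaagggcccggg
Rims1 exon 7: agggcgctctcaGGACTacccggaccggc
Rims2 exon 4: tgaagaaagagaGGACTactcacagtatg
Erc2 exon 2: attgcttccgctGGACTttcccacacgga
Unc13a exon 10, site 1: acagctgagcgaGGACTtcgaccctgatg
Unc13a exon 10, site 2: gagttaccacaaGGACTcaccccgctggg
Unc13b-216 exon 2, site 1: ctttatctatatGGACTtcctgaacatga
Unc13b-216 exon 2, site 2: cacaccagataaGGACTcagaatcaacaa
Unc13b-216 exon 2, site 3: ggctgtgaagctGGACTtgatattctgag
Unc13b last exon: gatcgtgtgataGGACTggcagtgatgcc

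The motif lay 2 nt from the midpoint of the interval in Rims1 exon 7 and 2 nt from it in Erc2 exon 2, whereas it was 487 nt away in the wide interval of Bsn exon 5 (1182 nt). Pclo, Erc1 and Ppfia3 had no such coding site in their strongest intervals.

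All 9 genes carried at least 1 shared interval, 79 in total, compared with 45.5% of all protein-coding genes. The numbers were 18 in Pclo, 15 in Erc1, 14 in Bsn, 8 in Erc2, 7 each in Rims1 and Ppfia3, 4 in Rims2 and 3 each in Unc13a and Unc13b. Pclo thereby tied with Syne1 for the largest number among all protein-coding genes, Erc1 ranked 7 and Bsn ranked 10. The median over genes with at least 1 interval was 2. These mRNAs are long, and per kb of exon the genes stood less far out. Pclo had 0.802 shared intervals per kb and exceeded or equalled 83.2% of genes with an interval, and Bsn had 0.878 and 86.5%. Unc13b, with 0.132 per kb, lay at 7.24% on this scale. All 9 genes also had an interval in which IP exceeded input by 2-fold or more in each replicate, compared with 36.8% of protein-coding genes. Of the 79 intervals 43 passed that limit. Among all shared intervals in the genome 36.8% had a lower value of 1.998 or less, so a larger share passed there than in the 9 genes.

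**Figure D1:**
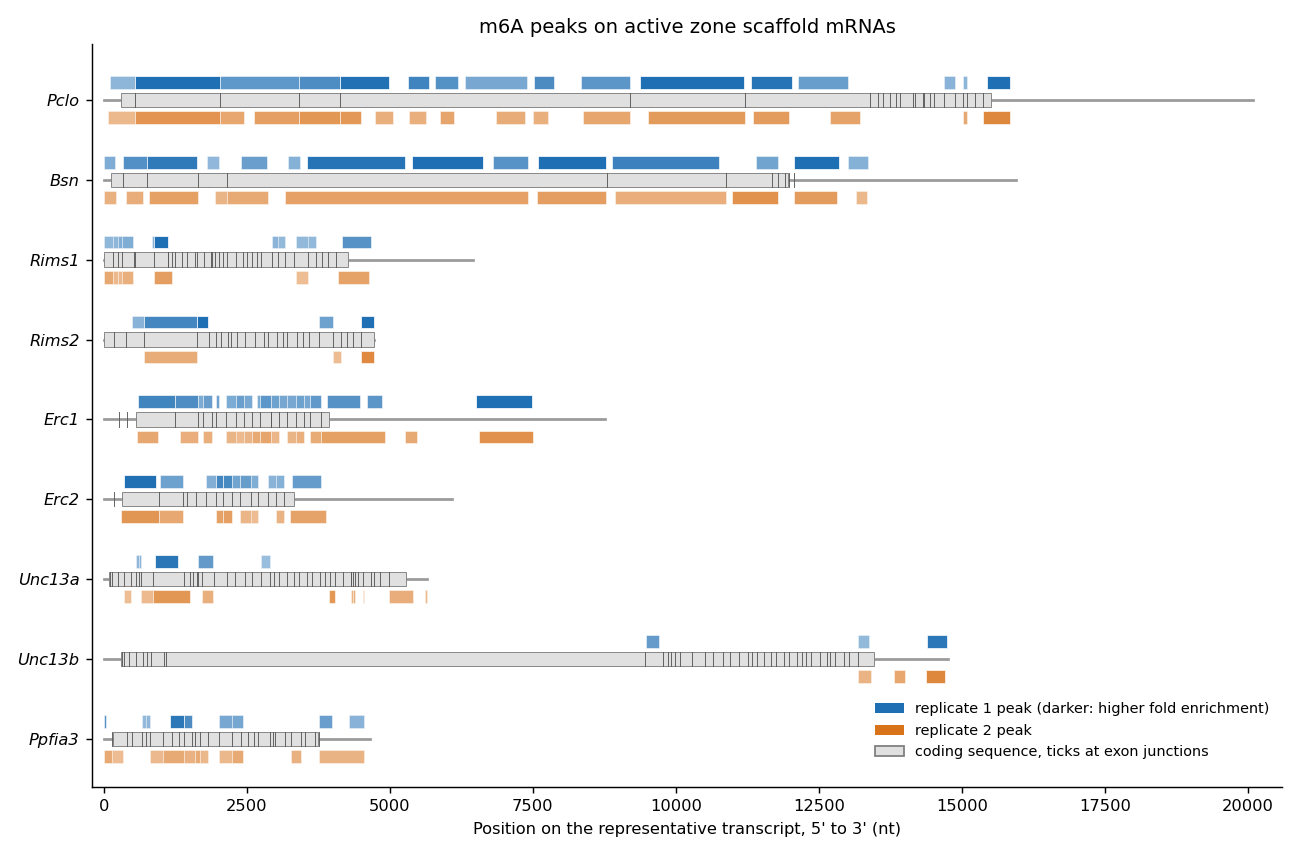
Peaks of replicate 1 (blue, above) and replicate 2 (orange, below) on the representative transcript of each gene, the one with the longest coding sequence, drawn to scale in nt from 5′ to 3′; darker bars have a higher fold enrichment, the grey box is the coding sequence and ticks mark exon junctions. Peaks tile the long exons of Pclo and Bsn, follow the short exons of Erc1, and leave the 8367-nt exon of Unc13b free; peaks on exons of other transcripts are not drawn.

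Pclo (chr5:14514918-14863459, plus strand) encodes piccolo, and its representative transcript, Pclo-201, has 20084 nt in 25 exons. Exons 2 to 7 are the long internal exons, taken here as those of at least 400 nt, and each held a shared interval. Exon 2 (1483 nt) was covered from end to end, with a fold enrichment of 6.13 in replicate 1 and 3.08 in replicate 2. Exon 4 (711 nt) was covered entirely as well, at 3.24 and 2.94. The longest, exon 5 (5059 nt), was tiled by 7 intervals that covered 54.2% of it. Their fold enrichment ran from 2.13 to 4.43 in replicate 1 and from 1.89 to 2.89 in replicate 2. Exon 6 (2018 nt) carried a single interval of 1684 nt, at 4.68 and 2.79. The highest value of the lower of both replicates was found at the end of the coding sequence, where an interval in exon 25 spanned the stop codon with 5.46 in replicate 1 and 3.59 in replicate 2. No other interval lay in the remainder of that 4714-nt exon, of which 8.46% was covered. The 17 short internal exons, by contrast, held 1 interval, over exon 22 (68 nt), at 1.56 and 2.17. In bases, 68.3% of the long internal exons and 3.43% of the short ones were covered. Another shared interval, at 1.65 and 1.74, fell on the last exon of the shorter transcript Pclo-204. Exons of Gm26918 overlap 2 of the Pclo intervals, in exons 2 and 3, and those of Gm26954 overlap 1 in exon 7, so these reads cannot be assigned to 1 gene.

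Bsn (chr9:108096022-108190384, minus strand) encodes bassoon in 12 exons and 15938 nt (Bsn-201). All 6 long internal exons, exons 2 to 7, held shared intervals, and 77.1% of their bases were covered. Exon 5 (6642 nt) had 6 intervals over 81.7% of its length. In replicate 1 these came from 6 separate peaks with fold enrichments between 1.72 and 5.72. In replicate 2 a single peak of 4239 nt, at 2.49, ran across 4 of them. The number of intervals in such an exon thus depended on where the caller split the signal. The peaks covered 81.8% of the exon in replicate 1 and 92.7% in replicate 2. By covered bases exon 5 of Bsn (5425 nt) ranked 6 among the exons of all representative transcripts, and the largest value was 7281 nt in exon 5 of Map1a. The strongest of the 6 intervals by the lower value had 4.66 in replicate 1 and 2.64 in replicate 2. In exon 3 the strongest one stood at 4.02 and 2.56. Exon 6 (2077 nt) was covered over 87.7%, at 3.70 in replicate 1 and 1.96 in replicate 2. The interval over exons 7 and 8 went the other way, with 2.29 in replicate 1 and 3.15 in replicate 2. The stop codon of Bsn lies in exon 10 and was under no shared interval. The 3′ UTR continues in exon 12, and a shared interval of 745 nt began at the first base of that exon, 108 nt after the stop codon, at 5.17 and 2.70. A weaker interval followed, at 1.76 and 1.54.

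Pclo and Bsn were set beside genes with the largest numbers of shared intervals in 1 exon. Among these were Ahnak with 10 in exon 5, Apc with 9 in exon 16, and Spen, Ank3 and Srrm2 with 8 each. The exons of Ahnak and Apc are last exons, whereas those of Spen, Ank3 and Srrm2 are internal, as in Pclo and Bsn. Exon 5 of Pclo ranked 7 by this measure and exon 5 of Bsn ranked 16.

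RIM proteins bind Rab3 on vesicles and recruit calcium channels. Rims1 (chr1:22286251-22805994, minus strand) has 37 exons in its representative transcript and no internal exon of 400 nt. Its strongest interval lay over exon 7 (237 nt), with 5.11 in replicate 1 and 2.63 in replicate 2. This interval ran 133 nt past the 3′ end of exon 7, over bases that are exon in another transcript of the gene. It is counted below with the short exons because the representative transcript was used. Next by the lower value was an interval across the stop codon in exon 37, at 3.03 and 2.45. The other 5 were weak, with values from 1.42 to 1.88 in replicate 1 and from 1.31 to 2.19 in replicate 2. They lay over the first exon and exons 2, 3, 4 and 32. The strongest of these by the lower value was over exon 4, at 1.88 and 1.85. The one over the first exon began 150 nt upstream of the annotated start of the gene and ended 108 nt past that exon.

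Rims2 (chr15:39198261-39684372, plus strand) had 4 shared intervals, and 2 of them lay outside its longest coding transcript. In exon 4 (926 nt), its only long internal exon, the interval covered the whole exon at 3.53 in replicate 1 and 2.02 in replicate 2. The strongest, at 4.67 and 3.50, covered the stop codon in the last exon and reached into the 3′ UTR of the transcript Rims2-206. The remaining pair lay on first exons of shorter transcripts, Rims2-211 at 2.21 and 2.19, and Rims2-204 at 1.95 and 2.36. A replicate 1 peak over exon 5 (209 nt) reached 5.62, the highest value of the gene, and had no counterpart in replicate 2.

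Exon 7 of Rims1 aligned with part of exon 4 of Rims2, with 73.8% identical bases over 237 nt, and both held a shared interval. By the lower value that of Rims1 ranked 1 of 7 in its gene, and that of Rims2 ranked 3 of 4. Over the whole coding sequences 3799 bases aligned, at 70.5% identity. Shared intervals covered 9.37% of these in both genes. The GGACT motifs of the 2 exons did not fall on the same aligned position. Both genes also had an interval at the stop codon.

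**Figure D2:**
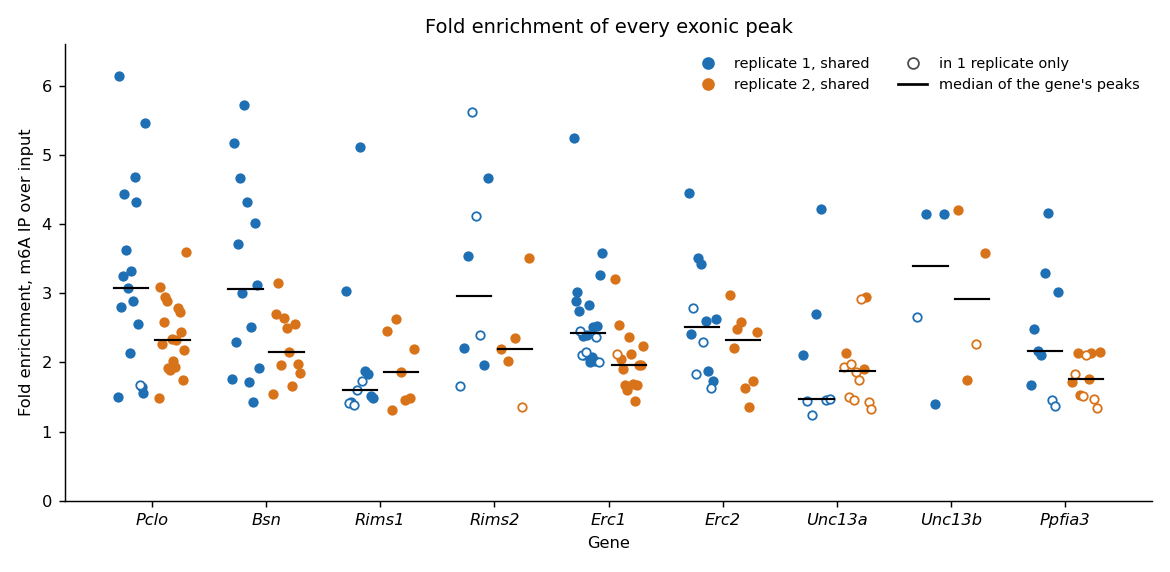
Fold enrichment of IP over input (linear axis) of every exonic peak of the 9 genes, replicate 1 in blue and replicate 2 in orange, with filled points for shared peaks, open points for peaks in 1 replicate only and black bars for medians. The highest shared peaks reach 6.13 in replicate 1 (Pclo) and 4.20 in replicate 2 (Unc13b), and open points are most frequent in Unc13a.

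ELKS/CAST proteins are coiled-coil proteins that bind RIMs, bassoon and piccolo. Erc1 (chr6:119570796-119848167, minus strand) and Erc2 (chr14:27622428-28478537, plus strand) differed from the giant scaffolds in that intervals followed their short exons. In Erc1, 10 of 17 short internal exons (58.8%) held a shared interval, and in Erc2, 5 of 12 (41.7%) did, compared with 7.3% of short internal exons in all genes with an interval. Among 3629 genes with at least 10 such exons and a shared interval anywhere, Erc1 ranked 19 and Erc2 ranked 82 by this share. Replicate 1 alone had peaks over 14 of the 17 exons in Erc1 and over 8 of the 12 in Erc2, and replicate 2 over 10 and 5. The enrichment over them was modest. In Erc1 the 10 intervals ran from 2.00 to 2.83 in replicate 1 and from 1.45 to 2.36 in replicate 2. In Erc2 exons 8 and 9 were higher, at 3.51 and 3.42 in replicate 1 and at 2.48 and 2.58 in replicate 2. The other 3 of Erc2 lay between 1.35 and 2.60 over both replicates.

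The strongest Erc1 interval was in the 3′ UTR, 2628 nt after the stop codon and 933 nt wide, at 5.24 in replicate 1 and 3.21 in replicate 2. A GGACT lay 7 nt from its midpoint. A further interval spanned the Erc1 stop codon, at 3.02 and 2.54, and one of 253 nt farther into the 3′ UTR had 2.88 and 2.54. All 3 intervals of this last exon overlap exons of Gm44317, so the reads cannot be assigned to 1 gene. In Erc2 the strongest interval was in exon 2 (797 nt), at 4.44 and 2.98, and the stop codon lay under one at 2.63 and 2.43. The long internal exons of both genes were occupied, exons 3 and 4 in Erc1 and exons 2 and 3 in Erc2.

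The coding sequences of Erc1 and Erc2 aligned over 2957 bases at 70.1% identity, and 15 pairs of exons could be set side by side. In 7 pairs both exons held a shared interval, in 5 only that of Erc1, in 1 only that of Erc2, and in 2 neither. Among the 7 is exon 20 of Erc1 beside the 2935-nt last exon of Erc2, where 143 nt aligned at 56.6% identity. The Erc2 interval of that pair had its midpoint in the 3′ UTR, 224 nt after the stop codon. Shared intervals covered 42.7% of the aligned bases in both genes. At 2 aligned positions both genes had GGACT, in exon 12 of Erc1 and exon 10 of Erc2, and neither position was under a shared interval in either gene. Each was under a peak of 1 replicate, however. In Erc1 a replicate 2 peak over the whole of exon 12, at 2.11, included both positions. In Erc2 a replicate 1 peak over the whole of exon 10, at 2.30, did so. A shared interval touched another stretch of that Erc1 exon.

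**Figure D3:**
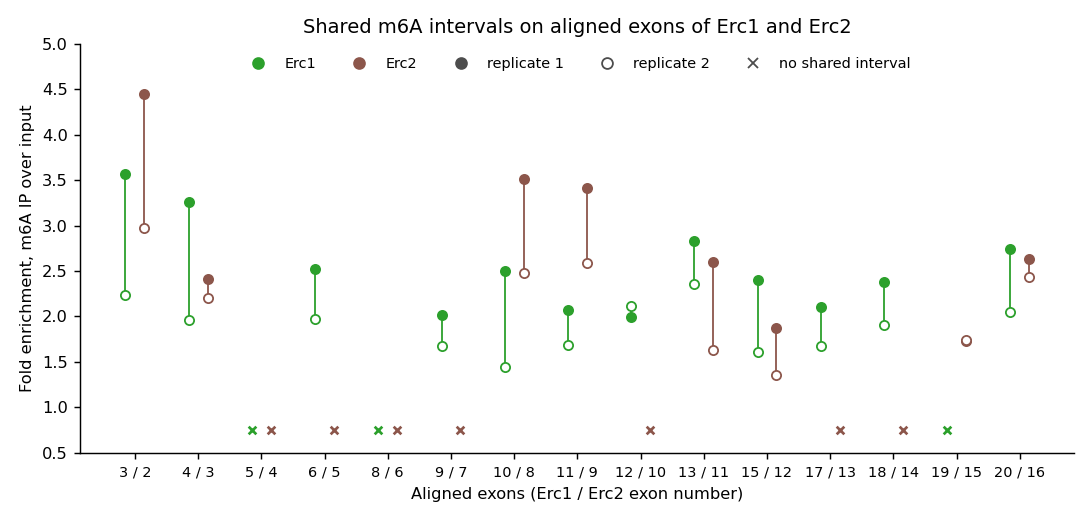
Fold enrichment (linear axis) of the shared interval over each of 15 aligned exon pairs, Erc1 in green and Erc2 in brown, with filled points for replicate 1 and open points for replicate 2; crosses at the bottom mark exons with no shared interval and carry no value. Both genes are occupied in 7 pairs, and replicate 1 lies above replicate 2 except in exon 12 of Erc1 and exon 15 of Erc2. In the last pair 143 nt align, and the Erc2 interval lies mostly in the 3′ UTR.

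Munc13 proteins prime docked vesicles for release. Unc13a (chr8:71624417-71671757, minus strand), the main isoform of most excitatory synapses in the brain, had 3 shared intervals. Exon 10 (546 nt), its only long internal exon, carried the strongest, at 4.22 in replicate 1 and 2.95 in replicate 2. The others lay over exon 16 (220 nt), at 2.70 and 1.90, and in the 5307-nt last exon of Unc13a-201, at 2.11 and 2.14. The lists differed most in this gene. Of 7 peaks in replicate 1, 4 had no counterpart, with fold enrichments of 1.24 to 1.48. Of 12 peaks in replicate 2, 9 had none, with 1.33 to 2.91. A peak at the end of the coding sequence, at 1.98, was among the 9.

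Unc13b (chr4:43058953-43264871, plus strand) held the interval with the highest lower value of the 9 genes, at 4.14 in replicate 1 and 4.20 in replicate 2. It covered 1753 nt of exon 2 of the transcript Unc13b-216 (chr4:43215452-43217965, 2514 nt), in which the start codon of that transcript also lies. Of all shared intervals in the genome, 97.3% had a lower value no higher than this. The longest coding transcript, Unc13b-215, does not contain this exon. It has instead an exon 10 of 8367 nt, on which neither replicate had a peak. Whether that exon was transcribed in these samples was not measured. At the 3′ end of the gene an interval in the 3′ UTR had 4.14 and 3.58, and one at the start of the last exon had 1.40 and 1.75. Unc13a exon 10 aligned with exon 11 of Unc13b (315 nt), where replicate 1 alone had a peak, at 2.65. Of 4666 aligned bases at 73.6% identity, 0 were under shared intervals in both genes, and 649 were in 1 of them.

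Liprin-alpha-3 binds RIMs and receptor-type phosphatases. Ppfia3 (chr7:45339122-45367019, minus strand) has 30 exons and no internal exon of 400 nt, the longest having 255 nt. Of its 28 short internal exons, 7 (25%) were touched by shared intervals. The strongest by the lower value, at 3.01 and 2.15, lay over the first exon of the non-coding transcript Ppfia3-205. Of its 213 nt, 43 fell in the first exon of the representative transcript. The next, over exons 17 and 18, had 2.16 and 2.14. The highest value in replicate 1, 4.16, was over exons 8 to 10, where replicate 2 had 2.13. The stop codon lies in exon 29, and an interval over exon 30 had 2.48 and 1.72. Its part in exon 30 began 14 nt after the stop codon. A further 60 nt lay upstream of exon 30, over bases that are exon in another transcript.

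The intervals of the 9 genes were placed on the representative transcripts by their midpoints, which was possible for 68 of them. In long internal exons lay 44.1% (95% Wilson interval 32.9 to 55.9), compared with 15% of 20303 intervals of all protein-coding genes. Most of these were in Pclo and Bsn, with 7 in exon 5 of Pclo and 6 in exon 5 of Bsn. Erc1 and Erc2 had 2 each, Rims2 and Unc13a 1 each, and Rims1, Unc13b and Ppfia3 none. The higher share is thus mainly that of the giant scaffolds. In short internal exons lay 35.3% (25 to 47.2), compared with 23.1%. Around the stop codon, at a distance of up to 200 nt, lay 4 of the 68, or 5.88% (2.31 to 14.2), compared with 23.1%. The share depended on the rule of placement. Counted by any base of the interval it was 14.9% (11 of 74, 8.51 to 24.7), compared with 34.6% over all genes, and with midpoints within 100 nt it was 1.47% (0.26 to 7.87), compared with 13.2%. The all-gene shares under these other rules were added after the data had been seen. These Wilson ranges cover counting error only, and shared intervals of 1 gene are not independent. Coding sequence held 56 of the 68 (82.4%), compared with 61.4% over all genes. Of the 9 stop codons, 5 (55.6%), those of Pclo, Rims1, Rims2, Erc1 and Erc2, were under a shared interval, compared with 51.3% of genes with an interval.

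Counted by exon, 18 of 19 long internal exons (94.7%) held a shared interval, compared with 75.1% of those in all genes with an interval. The exception was exon 10 of Unc13b-215. At a limit of 1000 nt 7 of 8 (87.5%) held a shared interval, compared with 779 of 866, so the share was not higher there. Of 217 short internal exons 30 (13.8%) did, compared with 7.3%, and 15 of the 30 belonged to Erc1 and Erc2. Rims2 and Unc13b had none, and Unc13a had 1 in 42. The fold enrichment was lower over short exons. The median of the lower of both replicates was 1.75 for the 26 intervals placed there and 2.32 for the 32 in long internal exons. For these medians all 79 intervals were placed, by another transcript or the nearest exonic base where the midpoint missed the representative exons. The shared intervals over short exons also often ran past the exons. Their median length was 324 nt, and the median share of an interval outside annotated exons of the gene was 51.7%.

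**Figure D4:**
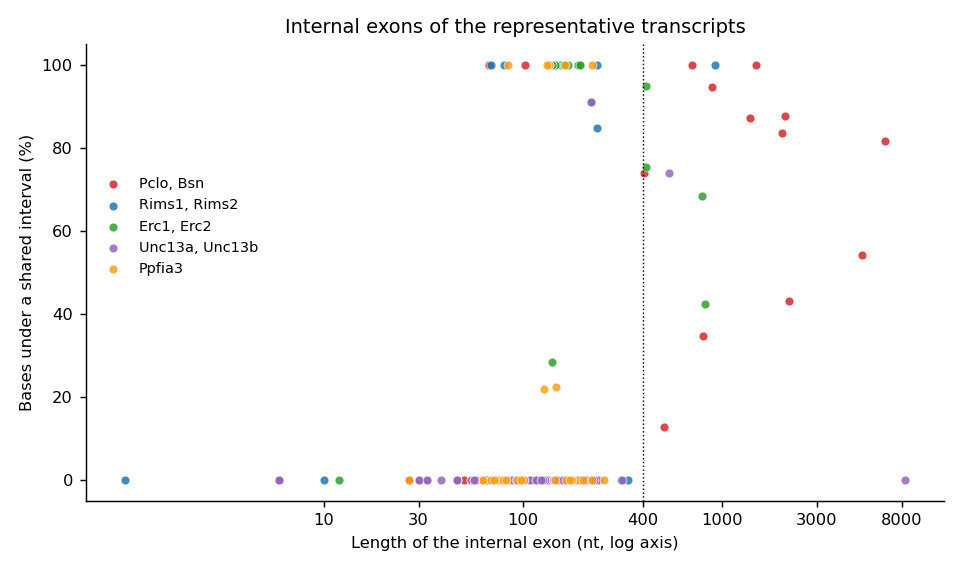
Share of bases under shared intervals (linear axis, %) against the length of each internal exon (log axis, nt) of the 9 representative transcripts, coloured by gene pair; the dotted line marks 400 nt. Of 19 exons to the right of the line 18 are above 0, the exception being the 8367-nt exon of Unc13b, whereas 187 of 217 exons to the left are at 0.

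Within the 18 occupied long exons, shared intervals covered 42.1% of the first 100 nt, 62.8% of the last 100 nt and 75.7% of the bases between. Summed over all genes the order was the same, with 32.5%, 40.3% and 63.4%. Single genes departed from it, such as Unc13a, with 58% of the first 100 nt and 0% of the last covered. The giant scaffolds differed from each other in this respect. In Bsn 120 of the 600 nt at the starts of these exons were covered, and 82.0% of the middle. In Pclo 400 of the 600 nt at the starts were covered (66.7%), and 67.8% of the middle. In Pclo the interval over exon 2 began 82 nt before the exon, the first one of exon 5 began 83 nt before it, and that over exon 4 ended 114 nt after it, all in introns.

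GGACT was searched on the strand of the gene in the annotated exons, and GGAC, which includes GGACT, in the same way. GGACT was present in 27 of 79 shared intervals (34.2%, 95% Wilson interval 24.7 to 45.2), compared with 38.8% of 20775 intervals over exons of 1 gene. Over the representative transcripts, 34 of 85 GGACT motifs lay in shared intervals, which took up 35.3% of the bases. The density was thus 1.10 per kb inside and 0.906 outside, a ratio of 1.22, compared with a ratio of 1.65 over all genes with an interval. Pclo and Bsn stood on opposite sides. In Pclo 12 of 17 motifs lay inside (1.24 against 0.481 per kb), whereas in Bsn 7 of 17 did (0.703 against 1.67 per kb). For GGAC both were denser inside, with 4.44 against 2.12 per kb in Pclo and 6.32 against 4.69 per kb in Bsn. A motif within a peak is a candidate position and was not measured at base resolution.

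The replicates were compared over 72 pairs of matched peaks, those that overlapped each other most. Replicate 1 had the higher value in 61 of them (84.7%). The median was 2.72 for replicate 1 and 2.14 for replicate 2. Over all 20996 exonic pairs replicate 1 was higher in 78.3%, with medians of 2.98 and 2.30. The medians of the 9 genes thus lay below those of all genes in both replicates. Spearman's rho between replicates was 0.73 over the 72 pairs and 0.64 over all pairs, each peak of a list sharing its library. In 6 genes the same interval was the strongest in both replicates. The exceptions were Pclo, Bsn and Ppfia3. In Pclo replicate 1 was highest over exon 2 and replicate 2 at the stop codon, and in Bsn replicate 1 was highest over exon 5 and replicate 2 over exons 7 and 8.

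**Figure D5:**
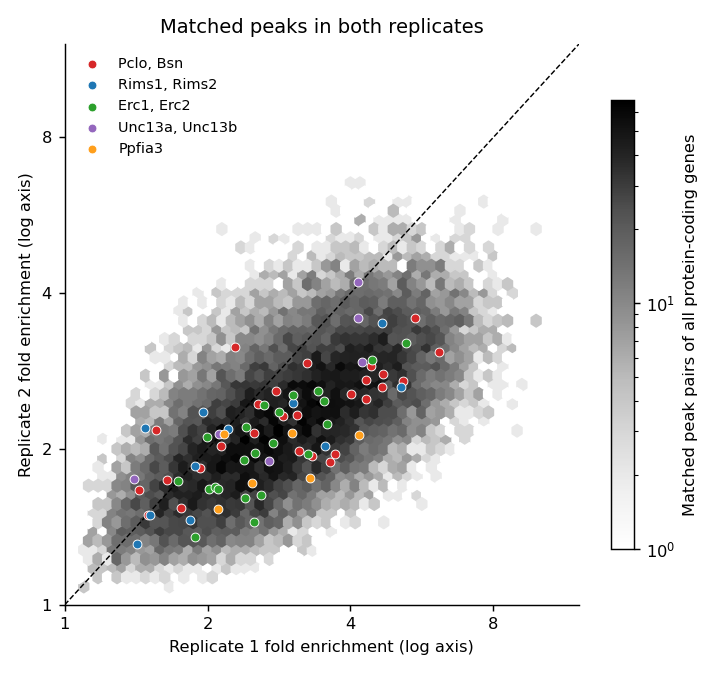
Fold enrichment of matched peaks in replicate 1 against replicate 2 (both log axes), with all exonic pairs of protein-coding genes in grey shades and the 72 pairs of the 9 genes as coloured points; the dashed line marks equal values. Of the 72 points 61 lie below the line, within the cloud of all other pairs.

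Of the 102 exonic peaks of replicate 1, 77 were shared (75.5%, 95% Wilson interval 66.3 to 82.8), compared with 67.8% of replicate 1 peaks over exons of protein-coding genes. Of the 91 peaks of replicate 2, 74 were (81.3%, 72.1 to 88.0), compared with 76.8%. The peaks found in 1 replicate only lay mostly in short internal exons. Of 25 such peaks in replicate 1 and 17 in replicate 2, 22 and 12 were in short internal exons, and 0 were in long internal exons. Of the 79 shared intervals, 26 were in short and 32 in long internal exons. They were also weaker. Their median was 1.73 for replicate 1 and 1.75 for replicate 2, compared with 2.75 and 2.14 for shared peaks.

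A list of 26 further genes of the active zone, paralogs and binding partners of the 9, was examined in the same way. Shared intervals were found in 25 of them, 82 in total, with a median of 3 per gene, compared with a median of 7 in the 9 scaffolds. Per kb of exon the medians were 0.431 over the 26 genes, Cask at 0 included, and 0.822 over the 9. The median of 0.399 over all genes is for those with an interval only. The most were in Tspoap1, which encodes a RIM-binding protein, with 8, and in Rimbp2, with 6. Ppfia4, Unc13c, Apba1, Rph3a and Ptprd followed with 5 each. Cask, whose product partners Lin7 proteins, had no peak in either replicate. Of the 26 genes, 18 had an interval that passed the 2-fold limit in each replicate. The other liprin-alpha genes had 4 intervals in Ppfia1, 3 in Ppfia2 and 5 in Ppfia4, fewer than the 7 of Ppfia3.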

How the data were processed

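m6A-seq of mouse whole brain comprised 2 IP and 2 input samples. The authors trimmed reads, aligned them to mm10 with TopHat (TopHat2 2.0.9 per the labels, another version in the methods), kept uniquely mapped reads and called peaks with MACS2 per replicate against its own input, without a fragment model, with all duplicates kept and a limit on the false discovery rate. The deposited peak lists give a position and a linear fold enrichment ratio of IP over input. The library kit does not mark strand. No peak ran past the end of a chromosome of the GRCm38.p6 sequence used here.

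Peaks were assigned to genes by exons of GENCODE M21. The representative transcript was the one with the longest coding sequence. Overlap of at least 1 bp made peaks shared. Shares carry 95% Wilson intervals. Coding sequences of paralogs were aligned base by base (Biopython 1.88). Scripts ran in Python 3.11.15 with numpy 2.4.6, scipy 1.17.1, pandas 2.3.3 and pysam 0.24.0, and were tested on simulated peaks. No test was made, as 1 condition with 2 replicates allows none.

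The genes and lists were chosen with earlier results of these data known. Named were all 9 genes, the 3 partners with the most shared intervals (with ties) and those with none, and the genes with the 5 largest numbers of intervals in 1 exon (with ties), of which 1 is not reported here. Each gene's 3 strongest intervals were described, and GGACT sites in their coding sequence were printed. Map1a and Syne1 were named after their values were seen.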

Additional observations from a re-analysis of the deposited data

Results flagged for a closer look

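Peaks within the 9 genes but outside every exon of their own gene took no part in the comparisons. Replicate 1 had 18 of them and replicate 2 had 3, of which 2 in each were shared. In Pclo lay 7 of the 18, with fold enrichments from 2.52 to 6.21, and none of them was found in replicate 2. Exons of Gm42444 and Gm43665 overlap 2 of these 7, so those reads cannot be assigned to 1 gene. The median over the 18, the 2 shared ones included, was 3.77. For the exonic replicate 1 peaks it was 1.73 without a counterpart and 2.75 for shared ones. The shared pair in Bsn (chr9:108134069-108135420 in replicate 1) had 4.45 and 3.61, and that in Rims1 had 3.04 and 2.92. The source of these peaks was not tested.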

How the results depend on the processing

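No paired analysis was possible because only 1 condition has peaks, and each input enters through the fold enrichment of its own replicate. Of 63 alternative values for 10 results, 49 stayed within 1.5 times the count, the Wilson interval or the spread of the replicate medians, and all 9 genes had a shared interval with a 2-fold minimum, 50% overlap, merged peaks, representative exons or peak midpoints in exons (not run for midpoints within 100 bp). In each list alone all 9 had a peak. With a 2-fold minimum for the peaks of each replicate 43 intervals remained, 60% of replicate 1 peaks were shared, the replicate 1 median was 3.51, and 61.1% of intervals lay in long internal exons. With overlap of 50% of both peaks 61.8% of replicate 1 and 69.2% of replicate 2 peaks were shared, and with midpoints within 100 bp 54.9% and 61.5%. With exons of at least 1000 nt as long ones the share in them was 29.4%, and 7 of 8 held an interval. The share at stop codons was 1.47% within 100 nt and 14.9% by any base. GGAC was present in 74.7%, and GGACT within 100 nt around the midpoint in 16.5%. Peaks of 1 replicate alone gave 91 and 102 in place of 79 intervals, 36.4% and 33.7% in long internal exons, 5.19% and 4.82% at stop codons, 35.2% and 33.3% with GGACT, and 18 occupied long exons each. Depth behind single peaks is unknown, and peak counts depend on how the caller splits wide signal.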
